A study of Mus musculus with 4 samples.

Results

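The genes described here belong to 9 solute carrier families that move glucose, lactate and other monocarboxylates, bicarbonate, chloride, sodium, protons, calcium and metals across membranes. They are the rows of the deposited tables whose symbol begins with Slc2a, Slc4a, Slc8a, Slc9a, Slc12a, Slc16a, Slc24a, Slc30a or Slc39a followed by a digit, and that had a count in each of the 4 libraries. Of 77 such symbols among the 15632 genes of the tables, 62 met this rule. By family these were 7 of 11 Slc2, 9 of 12 Slc16, 8 of 9 Slc4, 9 of 10 Slc9, 4 of 8 Slc12, 3 of 3 Slc8, 4 of 4 Slc24, 7 of 8 Slc30 and 11 of 12 Slc39 genes. The other 15 symbols are listed at 0 in at least 1 library. Slc2a4, Slc12a1, Slc12a3, Slc12a7 and Slc16a3 had counts in 1 library. Slc2a2, Slc4a5, Slc9a2, Slc16a5 and Slc30a3 had counts in 2 libraries, and Slc2a5, Slc2a9, Slc12a8, Slc16a14 and Slc39a2 in 3. The rule goes by symbol and therefore also takes in Slc9a3r1 and Slc9a3r2, which encode scaffold proteins, and Slc4a1ap, which encodes an adaptor protein.

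Gene expression was measured by droplet sequencing of nuclei from the micro-dissected deep cerebellar nuclei of C57BL/6J mice. The Ucn3-Cre line (Tg[Ucn3-cre]KF31Gsat/Mmucd), a transgenic line named for the neuropeptide gene urocortin 3, gave 1 female and 1 male library, both from mice of 3 months. The vGluT2-Cre line (Tg(Slc17a6-icre)1Oki), named for the vesicular glutamate transporter of nuclear projection neurons, gave 1 male library at 2 months and 1 female library at 2.5 months. Mice of both lines also carried Ai32, a Cre-dependent channelrhodopsin-EYFP allele, so no library comes from mice without Cre and reporter. Nuclei were isolated on an iodixanol gradient for Ucn3-Cre replicate 1 and on a sucrose cushion for the other 3 libraries. Age therefore differs between the lines and cannot be told apart from them. The labels do not say how many mice gave each library, or whether the 2 libraries of a line came from separate mice. The p-values below therefore measure the spread between these libraries, which may be technical.

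Brain cells take up glucose by facilitated transport, and lactate and other monocarboxylates move between cells together with protons on transporters of the Slc16 family. Neuronal chloride is set by the balance of the importer Slc12a2, which also accumulates chloride in glia and epithelia, and the extruder Slc12a5, on which inhibition by GABA and glycine depends. Calcium leaves cells in exchange for sodium (Slc8) or for sodium with potassium (Slc24). Cytosolic zinc is lowered by Slc30 transporters, which move it out of the cytosol, and raised by Slc39 transporters, which move it in, and several members of both families also carry manganese or iron.

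The deposited tables hold 21494 nuclei, and 4291 to 6587 nuclei and 9096357 to 19125488 counts per library. After removal of 947 likely doublets, 20547 nuclei were clustered without the transporters and their partner genes. Clusters were named from cell type markers, so each class name below stands for nuclei that resemble that type. Oligodendrocytes (6612 nuclei) and astrocytes (5028) were the largest named classes, followed by microglia (744), endothelial cells (734), oligodendrocyte precursors (692), inhibitory neurons (660), glutamatergic neurons (542), molecular layer interneurons (244) and mural cells (183). These 9 classes had at least 20 nuclei in each library and entered the tests, while fibroblasts (80), macrophages (18) and 5010 nuclei of unnamed clusters did not. Pairs of libraries shared 3 to 8 cell barcodes. The glycinergic marker Slc6a5 was at 0 to 2.33 CPM (counts of a gene per 1000000 counts of the class) in the inhibitory class, whose markers Gad1 and Gad2 averaged 278.9 and 436.7 CPM. In unnamed cluster 13 (433 nuclei), which scored highest for inhibitory neurons, Slc6a5 stood at 192.8 to 250.5 CPM. The endothelial class also held mural markers, whose summed level over 8 markers was 4281 to 6527 CPM there and 13060 to 16660 in mural cells. It held oligodendrocyte markers at 1613 to 5660 CPM, against 20540 to 22990 in oligodendrocytes.

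Levels are CPM of the counts summed over all nuclei of a class in a library, and are compared here between classes for 1 gene at a time. Differences are log2 fold changes from edgeR's quasi-likelihood test, with the library as block, and a gene was called at an adjusted p under 0.05 (Benjamini-Hochberg, over all 11922 genes tested). The classes were drawn from the same counts, so p-values between them are too small, although the transporters took no part in the clustering.

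The level of 60 of the 61 transporters tested differed among the 9 classes, against 95.7% of all genes tested. The adaptor gene Slc4a1ap did not pass (adjusted p = 0.187, edgeR), and the sodium-proton exchanger Slc9a3 was too low to be tested. By mean level, 14 transporters were highest in microglia, 11 in endothelial cells, 10 each in inhibitory neurons and molecular layer interneurons, 5 in mural cells, 4 each in astrocytes and glutamatergic neurons, 3 in oligodendrocytes and 1 in oligodendrocyte precursors. For 36 of the 62 transporters the same class was highest in each of the 4 libraries. For 33 the lowest library of the highest class lay above the highest library of the class next in order. These counts, and those of highest classes by family below, describe the means and carry no test. The same counts over all genes are not given, so none is a result about the transporters as a set.

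**Figure D1:**
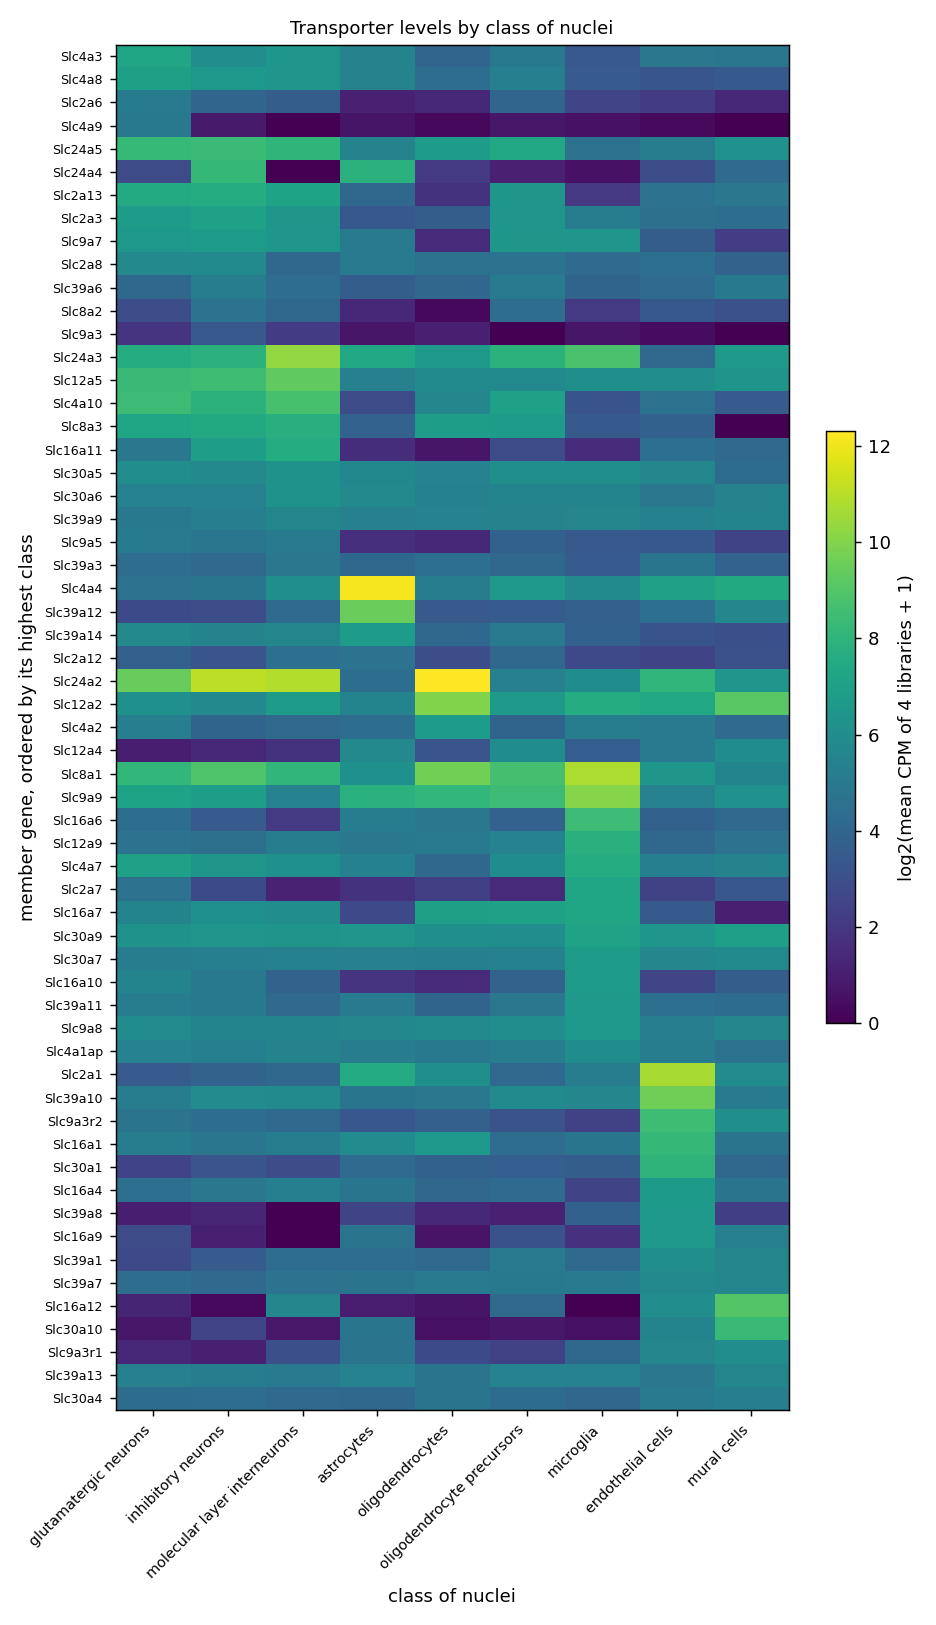
Mean level of 59 of the transporters (rows, grouped by the class in which each is highest) in the 9 classes of nuclei (columns); colour is log2 of the mean CPM of 4 libraries plus 1. The Slc4a4 and Slc39a12 rows stand out in astrocytes, Slc24a2 in oligodendrocytes and neurons, Slc2a1 and Slc39a10 in endothelial cells, and Slc8a1 and Slc9a9 in microglia.

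Neurons (the mean of glutamatergic and inhibitory neurons) were compared with glia (the mean of astrocytes, oligodendrocytes and their precursors). Of 61 transporters, 27 were higher in neurons and 19 lower, where the background was 69.3% of all genes called, 33.8% higher and 35.5% lower. The median log2 difference was 0.18 for the transporters and -0.05 for all genes. All 4 Slc24 calcium exchangers were called higher in neurons, as were 5 of 7 Slc2, 5 of 8 Slc4 and 2 of 3 Slc8 genes. Without vGluT2-Cre replicate 1 the calls of Slc24a3 (0.23, adjusted p = 0.0767, edgeR) and Slc4a9 (2.45, 0.0732) were lost. Slc24a2 and Slc24a4 were higher here only as means of classes: oligodendrocytes held the most Slc24a2, and Slc24a4 averaged 228.1 CPM in astrocytes and 6.37 in glutamatergic neurons. Slc24a3 was not above each glial class either. Oligodendrocyte precursors held it at 235.9 to 260.7 CPM after TMM scaling, while inhibitory neurons averaged 230.6 CPM and glutamatergic neurons 192.7. Of the 4 Slc12 genes, 3 were lower. None of the 7 Slc30 genes was called higher and 2 were lower, and of the 11 Slc39 genes 2 were higher and 4 lower. Of the 2 higher, Slc39a10 lost its call with the likely doublets kept (adjusted p = 0.0611, edgeR), without the library block (0.0739), with the unnamed clusters placed by marker score (0.101), and without vGluT2-Cre replicate 1 (0.108) or 2 (0.0558).

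Endothelial cells were compared with the mean of those 5 neuron and glial classes. Here 17 of 61 transporters were higher and 27 lower, with a background of 68.6% called, 35.4% higher and 33.2% lower, and the median was -0.41 against -0.02 for all genes. By family, 5 of 9 Slc16, 4 of 11 Slc39 and 3 of 7 Slc30 genes were higher, and all 4 Slc24 genes and 2 of 3 Slc8 genes were lower. The Slc39 and Slc30 counts lie near the background of 35.4% higher. The Slc24a4 call (-1.62, SE 0.74) was lost with the endothelial class from finer clusters (adjusted p = 0.152, edgeR), without the library block (0.103), with the unnamed clusters placed (0.0712) and with values rounded up (0.0592). It was also lost without Ucn3-Cre replicate 1 (0.0688) or 2 (0.138) and without vGluT2-Cre replicate 2 (0.145), and that of Slc24a2 with the likely doublets kept (0.614). No Slc4 gene was higher and 4 of 8 were lower, but with the finer clusters Slc4a4 was called higher (0.495, adjusted p = 0.0411, edgeR). Astrocytes had 27 transporters higher and 15 lower than oligodendrocytes (background 65.5% called, 32.9% higher and 32.5% lower, medians 0.27 and -0.04). Glutamatergic neurons had 14 higher and 10 lower than inhibitory neurons (background 28.2% called, 14.6% higher and 13.6% lower). In that comparison 6 of 8 Slc4 genes were higher and none was lower. With the unnamed clusters placed, 3 of these 6 were no longer called: Slc4a7 (0.29, adjusted p = 0.0686, edgeR), Slc4a8 (0.22, 0.151) and Slc4a10 (0.19, 0.135). Without the library block, or without Ucn3-Cre replicate 2, the number higher in glutamatergic neurons was 9 in place of 14.

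**Figure D2:**
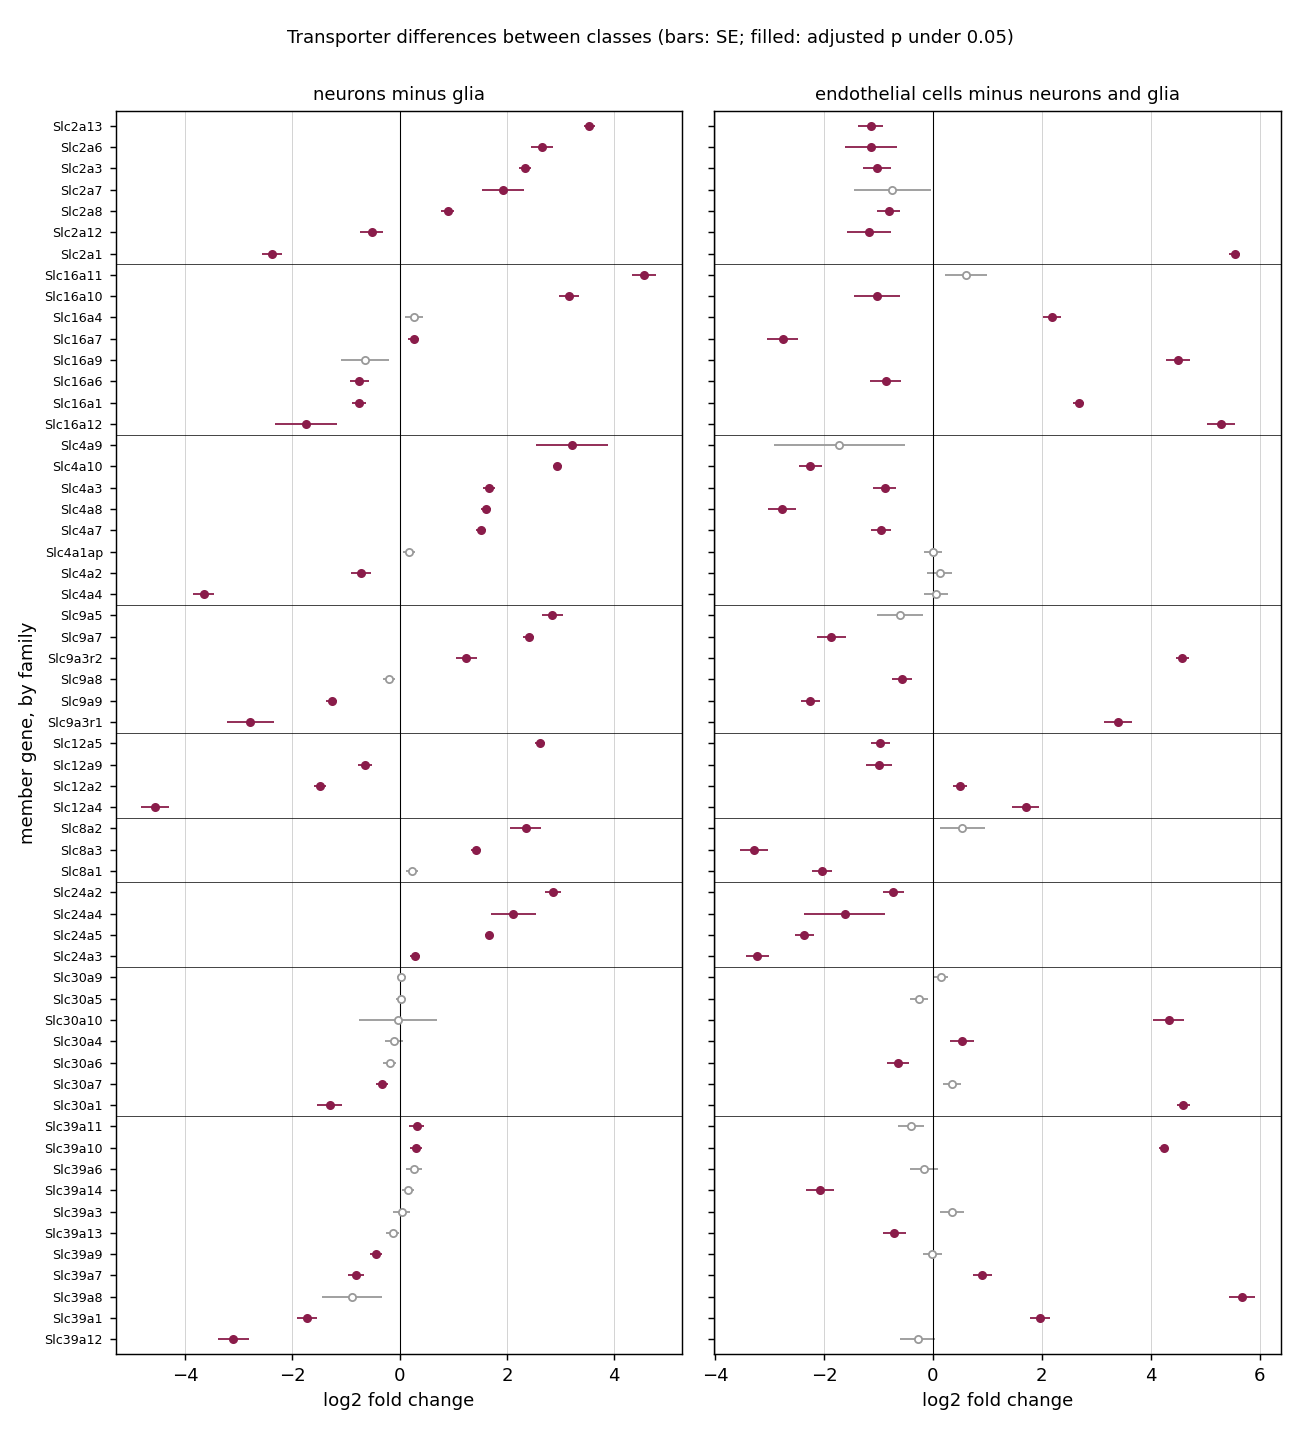
Log2 fold change of 58 of the tested transporters between neurons and glia (left) and between endothelial cells and the neuron and glial classes (right), by family from Slc2 at the top to Slc39 at the bottom. Bars are standard errors and filled points are called. Slc2a1, Slc30a1, Slc39a8 and Slc39a10 lie far to the right in the endothelial panel, and Slc16a11, Slc2a13 and Slc4a10 in the neuron panel.

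Among glucose transporters, Slc2a1 (the glucose transporter of the blood-brain barrier) was an endothelial gene and Slc2a3 (the high-affinity neuronal glucose transporter) a neuronal one. Slc2a1 stood at 1634 and 2261 CPM in the endothelial sums of Ucn3-Cre replicates 1 and 2, and at 1133 and 1655 in those of vGluT2-Cre replicates 1 and 2. Astrocytes came next, with 143.3, 218.9, 172.7 and 218.1 CPM in the same order of libraries. All 4 endothelial libraries were above all other sums, and astrocytes were above oligodendrocytes in each library. The endothelial difference from neurons and glia was 5.54 (SE 0.10), and the astrocyte difference from oligodendrocytes was 1.42 (SE 0.14, higher in 4 of 4 libraries for both). In inhibitory neurons Slc2a1 was at 1.77 to 26.3 CPM, and the difference between neurons and glia was -2.37 (SE 0.19).

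Slc2a3 stood at 108.8, 119, 106.6 and 92.9 CPM in glutamatergic neurons and at 129.3, 134.8, 121.9 and 129.8 in inhibitory neurons, in that order of libraries. In astrocytes it was at 6.22 to 11.8 CPM and in oligodendrocytes at 4.63 to 21.1, so that no neuronal sum overlapped with these. Oligodendrocyte precursors, with a mean of 85.9 CPM, came close to the neurons. The difference between neurons and glia was 2.34 (SE 0.12, adjusted p = 1.43e-25, edgeR), and that between glutamatergic and inhibitory neurons was not called (-0.21, SE 0.15). Slc2a13, a proton-coupled myo-inositol transporter, followed neurons more steeply. It averaged 185.5 CPM in glutamatergic neurons, 196.4 in inhibitory neurons, 15.98 in astrocytes and 2.54 in oligodendrocytes (neurons against glia 3.54, SE 0.10). Oligodendrocyte precursors, at 82.5 to 103.2 CPM after TMM scaling, lay between the neurons and the other glia. Slc2a6, a glucose transporter-like protein of lysosomes, averaged 32.2 CPM in glutamatergic and 15.4 in inhibitory neurons, a called difference of 1.11 (SE 0.25) that was not called without the library block (adjusted p = 0.196, edgeR).

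Slc2a7 was highest in microglia, at 107.2 and 116.8 CPM for Ucn3-Cre and at 279.2 and 124.1 CPM for vGluT2-Cre. It lies next to the fructose transporter gene Slc2a5 on the same strand of chromosome 4 (Slc2a5 at 150119283 to 150144169, Slc2a7 at 150148972 to 150168482, GRCm38). Slc2a5 itself is listed at 0 in Ucn3-Cre replicate 1 and stood at 147.4, 104.4 and 110.8 CPM in the microglia of the other 3 libraries. Whether reads from Slc2a5 contribute to the Slc2a7 counts was not tested.

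Of the 9 Slc16 genes, 4 were highest in endothelial cells, 3 in microglia, and 1 each in mural cells and molecular layer interneurons. Slc16a1 (MCT1, the lactate and ketone body transporter of barrier endothelium and oligodendrocytes) stood at 246, 282.3, 336.9 and 304.2 CPM in endothelial cells. Oligodendrocytes had 73.5, 100.5, 91.4 and 107.4 CPM, and astrocytes 54.5 to 68.6. Each class lay above the next in each library. The endothelial difference was 2.68 (SE 0.10), and astrocytes were lower than oligodendrocytes by a log2 difference of -0.68 (SE 0.10). Slc16a7 (MCT2, a high-affinity lactate importer) reached 122.1, 124.7, 128.3 and 129.2 CPM in oligodendrocytes and a mean of 129 in their precursors. Microglia were highest by mean, at 153.8, 111.3, 205.3 and 130.9 CPM, and overlapped with oligodendrocytes. It was at 65.5 to 79.7 CPM in inhibitory neurons and 3.09 to 8.50 in astrocytes. Astrocytes were lower than oligodendrocytes by -4.59 (SE 0.15, adjusted p = 5.79e-33, edgeR), with the same direction in 4 of 4 libraries. Between neurons and glia Slc16a7 differed by 0.26 (SE 0.11), a call that was lost without Ucn3-Cre replicate 2 (adjusted p = 0.0697, edgeR), without vGluT2-Cre replicate 1 (0.232), without the library block (0.0967) and with the unnamed clusters placed by marker score (0.149). This difference averages over glial classes that lie far apart. Both neuron classes, with a mean of 46 CPM in glutamatergic neurons, lay below oligodendrocytes and their precursors.

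Slc16a11, a proton-linked monocarboxylate transporter, had the largest called difference between neurons and glia, 4.56 (SE 0.22). It stood at 108.2, 97.8, 148.8 and 116.5 CPM in inhibitory neurons and at 21.6, 21.1, 48.5 and 26.8 in glutamatergic neurons. Molecular layer interneurons were higher still, at 168.7 to 246.7 CPM, and the means in astrocytes and oligodendrocytes were 2.08 and 0.692 CPM. In each library inhibitory neurons were above glutamatergic neurons (-1.93, SE 0.22). Slc16a9, a carnitine exporter, averaged 98.8 CPM in endothelial cells (4.50, SE 0.22) and 25.5 in astrocytes, which were above oligodendrocytes by 5.08 (SE 0.35).

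In microglia Slc16a6, which exports ketone bodies in liver, stood at 300.7, 323.4, 380.3 and 385.4 CPM, and no other class averaged more than 34.9. Slc16a10, a transporter of aromatic amino acids, averaged 106.7 CPM in microglia, 46.5 in glutamatergic and 30.9 in inhibitory neurons. Its difference between neurons and glia was 3.16 (SE 0.18). Microglia entered the shared fit but no fixed contrast, and their levels were chosen for mention after they were seen and have no test of their own. Oligodendrocyte markers summed to 1510 to 1768 CPM in microglia, astrocyte markers to 392.3 to 495 and glutamatergic neuron markers to at most 75.7, and their part in these levels was not tested.

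**Figure D3:**
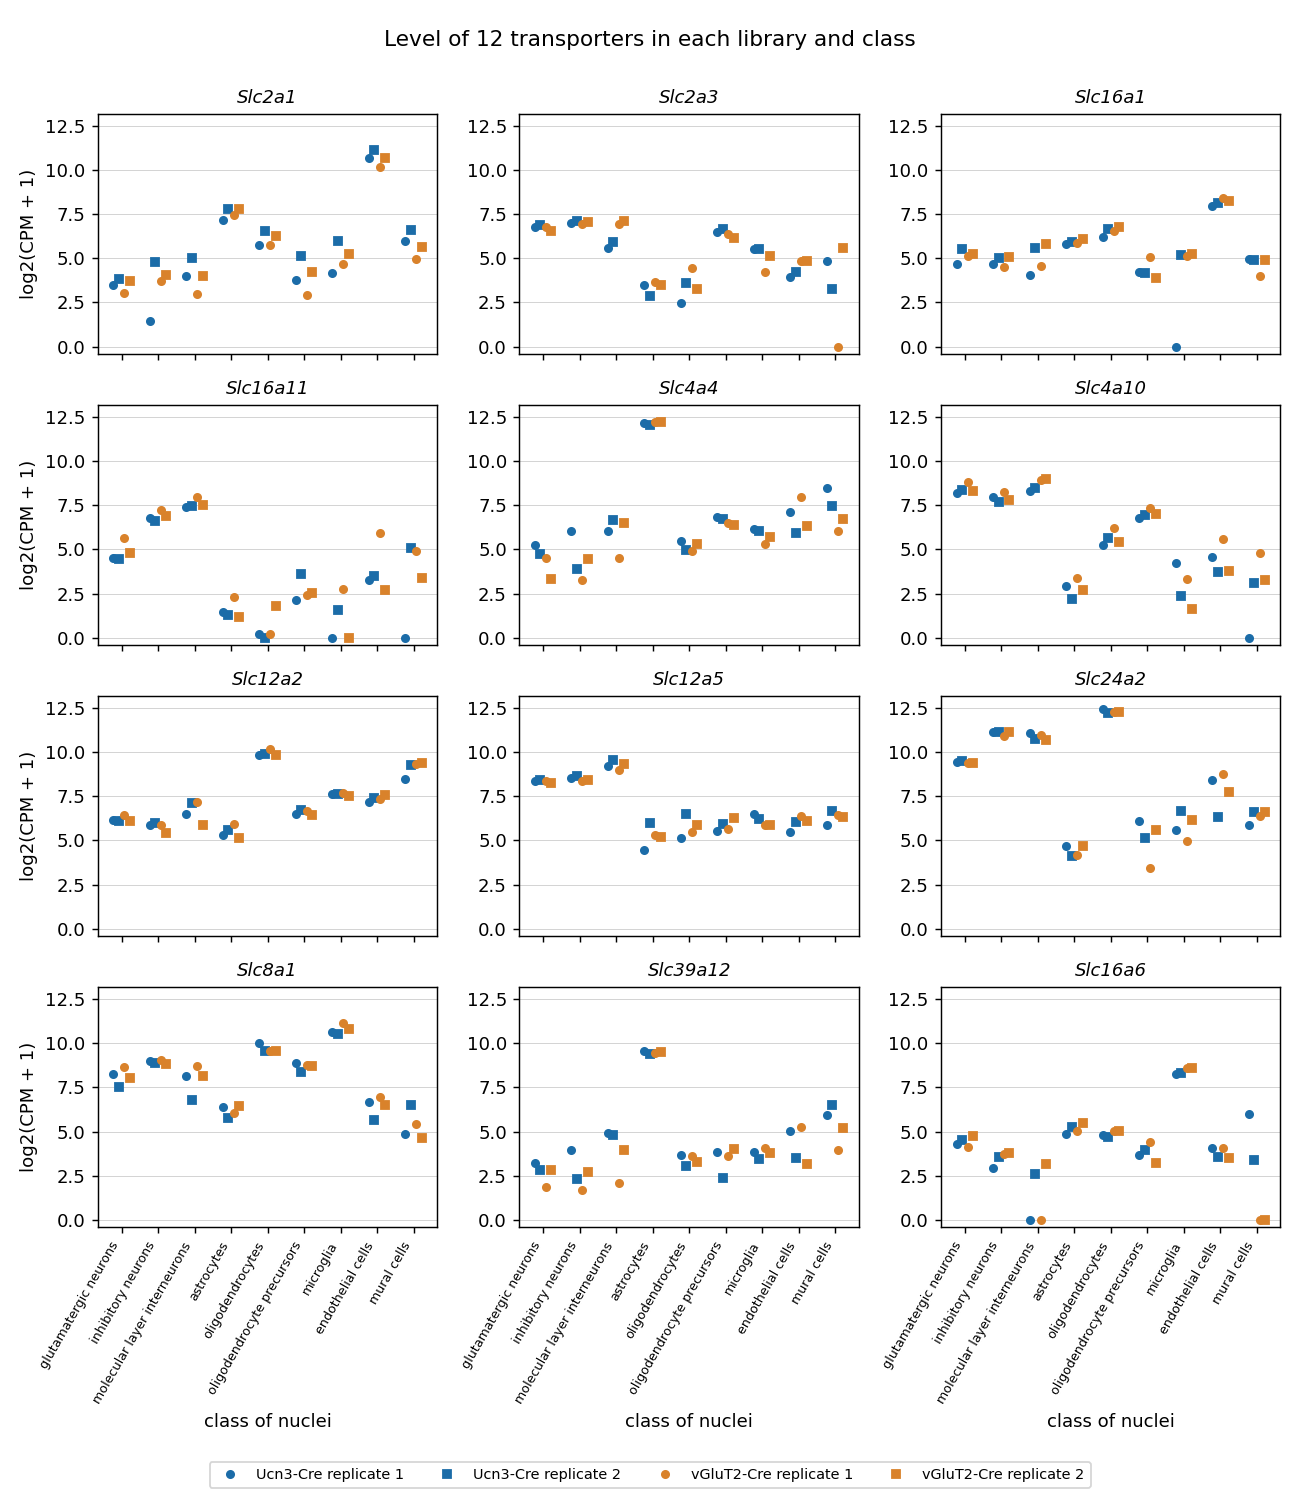
Level of 12 transporters in the 9 classes, as log2(CPM + 1); blue points are Ucn3-Cre and orange points vGluT2-Cre libraries, circles replicate 1 and squares replicate 2. The classes separate more than the libraries for most genes: Slc4a4 stood at 4257 to 4719 CPM in the 4 astrocyte sums and at 29.3 to 44.1 in the 4 oligodendrocyte sums.

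Of the transporters higher in astrocytes than in oligodendrocytes, the bicarbonate transporter Slc4a4 had the largest difference. Slc4a4 (NBCe1), the electrogenic sodium-bicarbonate cotransporter with which astrocytes buffer extracellular pH, stood at 4506, 4257, 4686 and 4719 CPM in astrocytes. In oligodendrocytes it was at 44.1, 30.7, 29.3 and 39.2 CPM, and no sum of another class came near those of astrocytes. The difference was 6.94 (SE 0.26, adjusted p = 1.0e-31, edgeR). In the same oligodendrocyte sums the astrocyte marker Aqp4 averaged 39.1 CPM, against 1196 in astrocytes. In endothelial cells Slc4a4 varied from 60.2 CPM in Ucn3-Cre replicate 2 to 252.4 in vGluT2-Cre replicate 1, the libraries in which Aqp4 was at its lowest (41.1) and highest (168) in that class. The part of Aqp4-bearing nuclei or RNA in those Slc4a4 values was not tested.

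The neuronal bicarbonate transporters had another distribution. Slc4a10 (NBCn2), which brings bicarbonate into neurons, stood at 286.4, 325.2, 456.3 and 316.4 CPM in glutamatergic neurons and at 244.7, 201, 302.8 and 220.3 in inhibitory neurons. Astrocytes held 3.49 to 9.49 CPM and oligodendrocyte precursors 108.2 to 164.6. The difference between neurons and glia was 2.94 (SE 0.08), with no overlap of neuronal and astrocyte sums. Slc4a3, a chloride-bicarbonate exchanger, was higher in glutamatergic neurons (206, 132.2, 128.3 and 136.7 CPM) than in inhibitory neurons (79.0, 64.3, 54.6 and 56.3), by 1.29 (SE 0.14). Slc4a8, the sodium-driven chloride-bicarbonate exchanger, averaged 125 and 94.5 CPM in these classes, with overlapping libraries and a difference of 0.42 (SE 0.12). This last call was lost with DESeq2 (adjusted p = 0.0795), without the library block (0.145), without Ucn3-Cre replicate 1 (0.0648) and with the unnamed clusters placed (0.151). The Slc4a10 difference between these classes was 0.60.

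Slc4a9, an anion exchanger first described in kidney, was the transporter with the largest called rise from inhibitory to glutamatergic neurons. It stood at 33.9, 32.6, 22.2 and 33.5 CPM in glutamatergic neurons. In inhibitory neurons it was listed at 0 in Ucn3-Cre replicate 1 and vGluT2-Cre replicate 2 and stood at 1.13 and 2.27 CPM in the other 2. The fitted difference of 4.67 (SE 0.47) depends on the prior count for that reason. Unnamed cluster 13 held 12.6 CPM on average, and with the unnamed clusters placed by marker score (13 among the inhibitory neurons), an alternative chosen after seeing the data, the difference was 2.42 (adjusted p = 1.98e-09, edgeR). Slc4a2 (AE2), a chloride-bicarbonate exchanger of many tissues, stood at 84.1, 119.4, 134.4 and 104.1 CPM in oligodendrocytes and at 18.5 to 22.4 in astrocytes (-2.45, SE 0.13). It overlaps Fastk on the opposite strand. Whether counting used strand is not given in the sources used here, so reads where the 2 genes overlap may not be told apart. Slc16a6 (with Amz2 and Arsg) and Slc8a1 (with Gm11096) also overlap genes on the opposite strand.

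Of the chloride cotransporters, Slc12a5 was highest in neurons and Slc12a2 in oligodendrocytes. Slc12a5 (KCC2), which extrudes chloride from neurons, stood at 332, 346.4, 324.5 and 303.5 CPM in glutamatergic neurons and at 368.4, 397.4, 331.1 and 344.3 in inhibitory neurons. Molecular layer interneurons had 503.5 to 763.2 CPM, above both. Astrocytes had 21.0 to 62.7 and oligodendrocytes 34.6 to 91.0 CPM, below each neuronal sum. Neurons exceeded glia by 2.62 (SE 0.09, adjusted p = 1.16e-33, edgeR). Between glutamatergic and inhibitory neurons the difference was -0.07 (SE 0.11) and was not called.

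Slc12a2 (NKCC1), the chloride importer, stood at 905.5, 957.3, 1175 and 931.9 CPM in oligodendrocytes and at 351.5, 613.5, 654.1 and 665.8 in mural cells. Astrocytes had 34.9 to 59.5 CPM, glutamatergic neurons 67.0 to 84.6 and inhibitory neurons 41.5 to 61.7. Every oligodendrocyte sum was above every sum of the other classes. Astrocytes differed from oligodendrocytes by -4.53 (SE 0.15) and neurons from glia by -1.49 (SE 0.11). The smaller difference of endothelial cells, 0.50 (SE 0.13), moved to 0.23 (adjusted p = 0.141, edgeR) when the endothelial class was taken from finer clusters, and to 0.32 (0.0599) without vGluT2-Cre replicate 2. Slc12a4 (KCC1), which takes part in volume regulation, averaged 54.4 CPM in astrocytes, 62.2 in oligodendrocyte precursors and 8.36 in oligodendrocytes. In the 2 neuron classes it was at 0 to 2.96 CPM, and neurons were lower than glia by -4.55 (SE 0.26). Slc12a9 averaged 223.9 CPM in microglia, where each library (171.6 to 285.8) was above all sums of the other classes.

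Of the partner genes of chloride transport, the kinase gene Wnk2 was higher in neurons than in glia (3.38, SE 0.12) and higher in astrocytes than in oligodendrocytes (6.30, SE 0.23). Wnk1 was lower in both comparisons (-1.21, SE 0.09, and -1.85, SE 0.12). Stk39, which encodes the kinase SPAK, was lower in astrocytes than in oligodendrocytes (-2.15, SE 0.10) and higher in glutamatergic than in inhibitory neurons (1.56, SE 0.12).

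Calcium exchangers were divided between oligodendrocytes, neurons, astrocytes and microglia. Slc24a2 (NCKX2), a potassium-dependent sodium-calcium exchanger of neurons and cone photoreceptors, stood at 5502, 4809, 4955 and 4975 CPM in oligodendrocytes. Inhibitory neurons had 2229, 2248, 1967 and 2251 CPM, glutamatergic neurons 707, 729, 677.5 and 660.2, and astrocytes 16.6 to 24.9. The 4 classes did not overlap in any library. Astrocytes were lower than oligodendrocytes by -7.98 (SE 0.28, adjusted p = 5.20e-33, edgeR) and glutamatergic lower than inhibitory neurons by -1.58 (SE 0.21). With the unnamed clusters placed, cluster 13 among the inhibitory neurons, the latter was -1.13 (adjusted p = 2.32e-05, edgeR). Cluster 13 held less Slc24a2 than the inhibitory class, as given under other observations. The called difference of 2.86 (SE 0.15) between neurons and glia averages over glial classes that lie far apart, since oligodendrocytes exceeded both neuron classes. In the unnamed clusters 0 and 5, which scored highest for oligodendrocytes, Slc24a2 averaged 6368 and 7341 CPM.

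In endothelial cells Slc24a2 stood at 347, 78.3, 436.5 and 215.5 CPM. Oligodendrocyte markers summed to 1613 to 5660 CPM in this class, as given above. The part of oligodendrocyte RNA in the endothelial Slc24a2 level was not tested. The endothelial difference of -0.72 (SE 0.20) had this direction in 3 of 4 libraries, and vGluT2-Cre replicate 1 went the other way. With the likely doublets kept it was -0.12 (adjusted p = 0.614, edgeR).

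Slc24a4 (NCKX4) was held by inhibitory neurons and astrocytes. It stood at 269.3, 298, 259.4 and 331.3 CPM in inhibitory neurons and at 8.04, 7.46, 7.05 and 2.94 in glutamatergic neurons, a difference of -5.44 (SE 0.26, adjusted p = 6.89e-24, edgeR). In unnamed cluster 13 it averaged 10.5 CPM, and with that cluster among inhibitory neurons the difference was -4.68. In astrocytes it was at 306.6, 231.2, 99.0 and 275.5 CPM, with vGluT2-Cre replicate 1 the lowest. Oligodendrocytes averaged 3.29 CPM, and the difference was 5.85 (SE 0.23). Slc24a3 (NCKX3) averaged 1282 CPM in molecular layer interneurons (1178 to 1405), 431.2 in microglia and 230.6 in inhibitory neurons. Oligodendrocyte precursors, at 235.9 to 260.7 CPM after TMM scaling, overlapped with inhibitory neurons (216 to 244.5 CPM). Slc24a5, known as a pigment gene, averaged 306.9 and 337.2 CPM in glutamatergic and inhibitory neurons (neurons against glia 1.67, SE 0.07). It overlaps Myef2 on the opposite strand, so its counts are uncertain.

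Slc8a1 (NCX1), the widespread sodium-calcium exchanger, stood at 1569, 1455, 2313 and 1814 CPM in microglia. Oligodendrocytes had 1023, 751.4, 754.1 and 762.8 CPM, inhibitory neurons 446 to 531.6, and astrocytes 53.2 to 85.5. The differences were -3.58 (SE 0.18) for astrocytes against oligodendrocytes and -0.76 (SE 0.17) for glutamatergic against inhibitory neurons. The last fell to -0.30 (adjusted p = 0.221, edgeR) with cluster 13 among inhibitory neurons. Neurons against glia was not called (0.24, SE 0.11). Slc8a3 (NCX3) averaged 147.8, 174.6 and 215 CPM in glutamatergic neurons, inhibitory neurons and molecular layer interneurons, and 113.1 CPM in oligodendrocytes against 13.4 in astrocytes (-3.15, SE 0.14). Slc8a2 (NCX2) was lower in glutamatergic than in inhibitory neurons (-1.72, SE 0.34), a call lost without the library block (adjusted p = 0.0833, edgeR).

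Among the pumps that set the gradients these carriers use, all 9 partner genes differed between neurons and glia, 6 higher and 3 lower, where 69.3% of all genes were called, 33.8% higher and 35.5% lower. Atp1b2, a glial sodium pump subunit, was lower in neurons (-3.02, SE 0.14). The plasma membrane calcium pump gene Atp2b4 was lower in glutamatergic than in inhibitory neurons (-3.35, SE 0.15), as Slc24a4 was.

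Of the sodium-proton exchangers, Slc9a9 (NHE9), an exchanger of late endosomes, stood at 957, 1164, 1152 and 1081 CPM in microglia. Oligodendrocyte precursors came next with 308.7 to 377.1 CPM, and oligodendrocytes had 268.9 to 299.8. Neurons were lower than glia by -1.26 (SE 0.10). Slc9a7 (NHE7), of the trans-Golgi network, was at 107.7 to 113 CPM in inhibitory neurons, 29.3 to 36.6 in astrocytes and 1.21 to 2.21 in oligodendrocytes. The difference between these 2 glial classes was 4.14 (SE 0.23). Oligodendrocyte precursors, at 69.25 to 105.5 CPM after TMM scaling, came closer to inhibitory neurons. The scaffold gene Slc9a3r2 averaged 360.4 CPM in endothelial cells (282.2 to 407.1), with a difference of 4.58 (SE 0.13).

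Of the 18 Slc30 and Slc39 genes, 5 were highest in endothelial cells, 4 in molecular layer interneurons, 3 each in microglia and mural cells, 2 in astrocytes and 1 in inhibitory neurons. Slc39a10, a zinc importer, stood at 635.3, 1028, 689.9 and 848.8 CPM in endothelial cells, and no other class averaged more than 60.9 (4.24, SE 0.08). Slc39a8, an importer of zinc and manganese, was at 80.7, 110.3, 83.8 and 120.7 CPM in endothelial cells and at 3.103 to 6.50 in astrocytes (5.67, SE 0.24). Slc30a1, the zinc exporter of the plasma membrane, was at 245.9, 313.8, 202.8 and 268 CPM in endothelial cells, 15.7 to 24.4 in astrocytes and 4.00 to 5.00 in glutamatergic neurons (4.60, SE 0.13). For each of these 3 genes all endothelial sums were above all other sums.

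Slc39a12, a zinc importer, was held by astrocytes, at 748, 674.7, 697.7 and 739.4 CPM against 7.41 to 11.6 in oligodendrocytes (6.15, SE 0.14, adjusted p = 3.47e-42, edgeR). Slc39a14, an importer of zinc, manganese and iron, was at 113.3, 108.2, 108.1 and 92.5 CPM in astrocytes and 13.7 to 18.6 in oligodendrocytes (2.67, SE 0.12), and lower in endothelial cells than in neurons and glia (-2.08, SE 0.26). The metallothionein genes Mt1, Mt2 and Mt3, whose products bind zinc, were also higher in astrocytes than in oligodendrocytes (2.06, 3.306 and 1.23, with SE 0.15, 0.12 and 0.12). They were lower in neurons than in glia (-2.84, -3.38 and -1.66, with SE 0.12, 0.21 and 0.12). The metal-responsive factor gene Mtf1 was lower in astrocytes than in oligodendrocytes (-1.44, SE 0.13).

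Slc30a10, a manganese exporter, was highest in mural cells, at 320.5, 386.9, 228.2 and 337.3 CPM. By mean, endothelial cells followed at 62.6, 72.4, 10.8 and 34.8 CPM, and then astrocytes at 22.8 to 29.3. In vGluT2-Cre replicate 1 the endothelial value rests on 1.93 counts and lay below that of astrocytes (26.9 CPM). Oligodendrocytes had 0.17 to 0.902 CPM, and astrocytes exceeded them by 5.31 (SE 0.35). Slc16a12, a creatine transporter, had the same 2 vascular classes at the top by mean. It stood at 579.4, 357.1, 475.8 and 615.5 CPM in mural cells and 93.8, 77.0, 28.0 and 59.5 in endothelial cells. Molecular layer interneurons, at 78.95, 48.86, 45.43 and 23.54 CPM, overlapped with endothelial cells for Slc16a12 and were above them in vGluT2-Cre replicate 1. Both genes were called higher in endothelial cells than in neurons and glia (4.33, SE 0.29, and 5.29, SE 0.25), but the endothelial class held mural markers.

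At resolution 2 the vascular nuclei fell into 4 clusters that differ in those markers. Cluster 22 (360 nuclei, named endothelial) held the mural marker Pdgfrb at 11.97 to 40.3 CPM, cluster 23 (294 nuclei, named endothelial) at 242.2 to 424.2, and mural cluster 25 (182 nuclei) at 2241 to 2839. In cluster 22 Slc16a12 was at 0 to 11.7 CPM and Slc30a10 at 0 to 17.3, each listed at 0 in 2 of 4 libraries. In cluster 23 their means were 57.4 and 39.02 CPM, and in cluster 25 they were 517.3 and 324. Slc2a1 went the other way, with 1598 to 2803 CPM in cluster 22, 589.3 to 1003 in cluster 23 and 29.8 to 97.7 in cluster 25. Slc39a8 averaged 141.3, 37.9 and 3.81 CPM in these 3 clusters. Unnamed cluster 27 (81 nuclei) held endothelial and mural markers together, and Slc2a1 averaged 2184 CPM there. Slc16a12 was at 203.9, 183.6, 791.4 and 160.9 CPM in that cluster, with a mean of 334.9 CPM, and of 182.8 CPM without vGluT2-Cre replicate 1. With the endothelial class taken at this resolution, the differences were 2.999 for Slc30a10, 3.99 for Slc16a12 and 5.46 for Slc2a1. Slc24a2 averaged 125.4 CPM in cluster 22 and 490.7 in cluster 23.

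**Figure D4:**
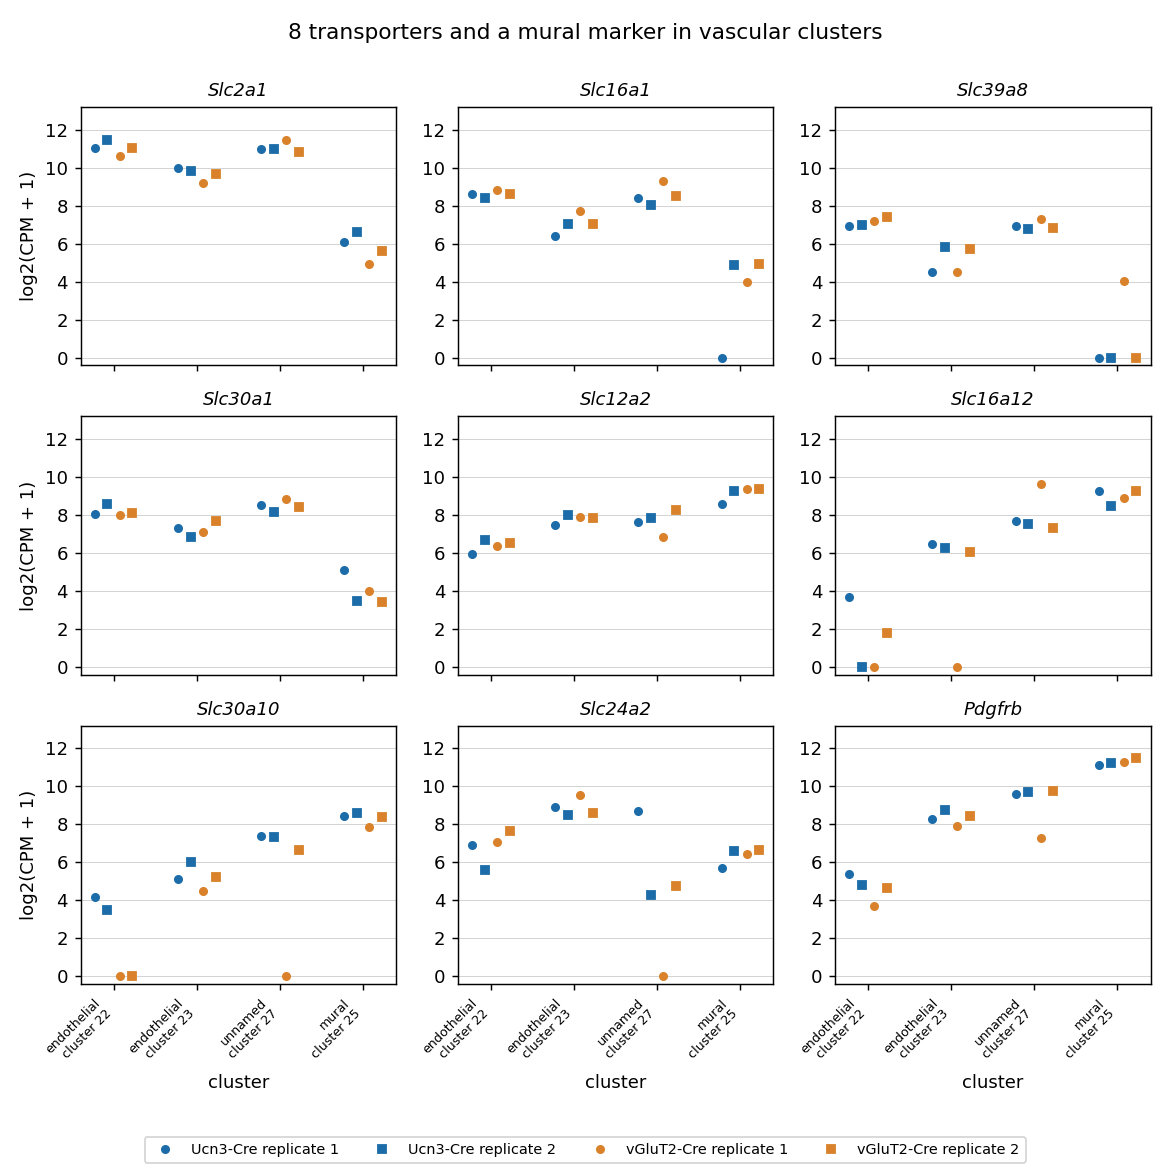
Level of 8 transporters and the mural marker Pdgfrb in the 4 vascular clusters at resolution 2, as log2(CPM + 1), with 1 point per library. Slc16a12 and Slc30a10 are listed at 0 or low in cluster 22 and high in mural cluster 25, where Slc2a1, Slc39a8 and Slc30a1 are lowest.

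The upstream sequences of these 2 metal exporters are shown because Slc30a1 and Slc30a10 take opposite positions in the vascular clusters and Slc30a1 is a known target of the metal-responsive factor. The sequences are the 250 bases before the start site in RefSeq, build GRCm38.p6, plus strand. Slc30a1 is at chr1:191906531-191906780 and Slc30a10 at chr1:185454598-185454847. Capitals mark matches to the core of the metal response element, TGCACNC or TGCGCNC on either strand.
Slc30a1: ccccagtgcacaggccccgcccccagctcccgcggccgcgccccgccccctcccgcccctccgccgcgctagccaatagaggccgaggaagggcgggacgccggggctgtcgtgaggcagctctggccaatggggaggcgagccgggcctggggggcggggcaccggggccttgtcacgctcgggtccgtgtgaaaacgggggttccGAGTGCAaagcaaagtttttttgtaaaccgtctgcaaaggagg
Slc30a10: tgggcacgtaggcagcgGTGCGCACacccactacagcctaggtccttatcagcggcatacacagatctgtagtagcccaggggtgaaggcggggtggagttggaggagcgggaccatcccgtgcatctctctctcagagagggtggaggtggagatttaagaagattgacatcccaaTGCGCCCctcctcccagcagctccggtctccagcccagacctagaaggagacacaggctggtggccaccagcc
Slc30a1 has 1 match, whose leftmost base lies 43 bases before the start. Slc30a10 has 3 matches, of which those at 233 and 232 bases before the start overlap on opposite strands, and 1 at 73. A match was found in 7 of the 16 Slc30 and Slc39 genes with an entry in the promoter table and in 22 of the 52 of all 62 transporters that had one. By window, a match was in 8 of 19 (42.1%) for the Slc30 and Slc39 genes, in 23 of 62 (37.1%) for all transporters and in 21.4% of all 32851 windows of this length. Both exporters have matches, and a relation of the matches to the levels in the vascular clusters was not tested.

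The partner genes of glucose and lactate use followed the vascular and glial division in part. Bsg, whose product basigin carries Slc16a1 to the membrane, was higher in endothelial cells (4.93, SE 0.09), as was the lactate dehydrogenase gene Ldha (3.30, SE 0.15). Emb (embigin), the partner of Slc16a7, was higher in neurons than in glia (2.43, SE 0.14). In astrocytes 8 of the 11 genes of this list were higher than in oligodendrocytes and 1 was lower (background 65.5% called, 32.9% higher and 32.5% lower). Among those higher were Pfkm (3.49, SE 0.13), Pygb (3.86, SE 0.11) and Gys1 (2.55, SE 0.14), which act in glycolysis, glycogen breakdown and glycogen synthesis. Of the gene list of carbonic anhydrases, Car4 was higher in endothelial cells (6.57, SE 0.15). Car2 and Car14 were higher in oligodendrocytes (-2.84, SE 0.15, and -2.32, SE 0.11, for astrocytes against oligodendrocytes). Car10, of the same gene list, went the other way, with means of 1462 CPM in astrocytes and 3.62 in oligodendrocytes.

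The comparison of the lines asks whether transporter levels differ between Ucn3-Cre and vGluT2-Cre libraries. In sums over all nuclei none of the 62 transporters was called by edgeR (background 0.00% of 13795 genes), 1 had an unadjusted p under 0.05, and DESeq2 called none of them. The smallest unadjusted p was that of Slc16a4, an orphan monocarboxylate transporter, at 28.9 and 27.8 normalised CPM in the Ucn3-Cre and 21.9 and 21.9 in the vGluT2-Cre libraries (0.37, SE 0.10, adjusted p = 0.895). In these sums fewer cells of a type and less RNA per cell cannot be told apart. The ratio of the highest to the lowest library had a median of 1.36 over the 62 genes and was above 2 for 7 of them. It was largest, at 2.98, for Slc16a11, which stood at 12.3, 15.8, 34.5 and 15.5 normalised CPM. The share of nuclei in neuron clusters, unnamed cluster 13 among them, was 12.7% in vGluT2-Cre replicate 1 and 7.06 to 8.91% in the other libraries. Within classes Slc16a11 was highest in that library too, in glutamatergic neurons, inhibitory neurons and molecular layer interneurons.

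Within classes the comparison of the lines called no transporter in any of the 9 classes, where 5 (mural cells) to 54 (glutamatergic neurons) were tested. At an unadjusted p under 0.05 there were 0 to 2 in a class (edgeR). Backgrounds were 0.127% of genes in microglia, 0.0484% in oligodendrocyte precursors, 0.0272% in molecular layer interneurons and 0.00% in the other 6. Without vGluT2-Cre replicate 2, 1 transporter was called in each of those 3 classes, which in molecular layer interneurons was Slc8a1. In molecular layer interneurons Slc8a1 had the smallest unadjusted p over the classes, at 353.1 and 137.1 against 512.3 and 341.9 normalised CPM (-1.08, SE 0.36, adjusted p = 0.696, edgeR), with lines that overlap. In endothelial cells Slc30a10 stood at 64.8 and 76.5 in Ucn3-Cre and 10.9 and 36.6 normalised CPM in vGluT2-Cre libraries (1.28, SE 0.45, adjusted p = 1.00). That class had 74 nuclei in vGluT2-Cre replicate 1 and 169 to 259 in the others. A test of whether a class difference itself changed between the lines called none of the 61 transporters (backgrounds 0.0923% for the endothelial comparison and 0.00% for the other 3). At an unadjusted p under 0.05 there were 6 between neurons and glia, 5 in the endothelial comparison and 1 in each of the other 2. The smallest adjusted p there was 0.351, for Slc9a9 in the endothelial comparison.

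Female and male libraries, 2 of each, were compared in the same way. No transporter was called by edgeR (background 0.00%) or DESeq2, and 2 had an unadjusted p under 0.05. Slc12a5 was at 91.2 and 107.4 normalised CPM in female and at 144.4 and 129.7 in male libraries (-0.46, SE 0.14, adjusted p = 1.00, edgeR). Slc4a4 was at 1335 and 1209 in female and 1048 and 942 in male libraries (0.35, SE 0.11). Neither pair of groups overlapped. The share of astrocytes was 28.0 and 23.8% in the female and 24.5 and 22.3% in the male libraries. That of neuron clusters, unnamed cluster 13 among them, was 7.34 and 7.06% in the female and 8.91 and 12.7% in the male libraries. The neuron shares did not overlap between the groups, and the part of these shares in the values was not tested.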

How the data were processed

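Each library's deposited table holds expected counts per gene symbol and nucleus: 97.2 to 98.8% of the values above 0 lie within 0.5 below a whole number, and 92.8 to 95.7% of the counts, rounded up, remained. The step that made them is not given in the sources used here. The authors used Cell Ranger 3.1.0, Seurat 3.2 and mm10, per the submitters' processing notes. Scrublet's automatic threshold marked 0.195% of nuclei, so a number of top-scoring nuclei set by library size was removed (0.8% per 1000 nuclei). Clustering (scanpy 1.11.5) used 2000 variable genes, 30 components, 15 neighbours and Leiden resolution 1. A cluster took the name of its highest marker score if this was at least 0.3, with 3 markers detected and no more markers of another class among its 10 leading genes. Counts were summed per library and class, rounded, filtered (filterByExpr), scaled by TMM and tested with edgeR 4.0.16. DESeq2 1.42.0, other scaling, filters, clusterings, doublets kept, rounding up and leaving out each library were alternatives. Named genes were a list of 32 by role and, in each class contrast, the 10 largest called changes with the same direction in 4 libraries, or otherwise the 3 smallest p. Genes chosen after their values were seen are Slc2a7, Slc12a9, Slc24a5, the microglial levels of Slc16a6 and Slc16a10, and Slc4a2 between glial classes. The members and lists were chosen with earlier results of these data known. The scripts were tested on simulated data. Annotation is GENCODE vM21 (GRCm38). Some genes of these lists, counted in the totals, are not reported here by name.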

Additional observations from a re-analysis of the deposited data

Results flagged for a closer look

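In 4 of 49 transporters named in the comparisons, 1 library stood apart from the other 3 in the class where the gene was highest. By chance about 1 in 20 such groups is marked. Slc4a3 in glutamatergic neurons was at 206 CPM in Ucn3-Cre replicate 1 and at 128.3 to 136.7 in the others. Slc39a3 in molecular layer interneurons was at 21.8 CPM in Ucn3-Cre replicate 2 and at 30.2 to 31.8 in the others. Slc4a7 in microglia was at 179.1 CPM in vGluT2-Cre replicate 2 and at 204.1 to 206.3 in the others. Slc4a9 in glutamatergic neurons was at 22.2 CPM in vGluT2-Cre replicate 1 and at 32.6 to 33.9 in the others.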

How the results depend on the processing

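Of 20 counts of called transporters, 4 moved by more than 1.5 times under an alternative. The number higher in glutamatergic than in inhibitory neurons was 9 with no library block and 9 to 13 when each library was left out (14 otherwise). For the lines within microglia, molecular layer interneurons and oligodendrocyte precursors, leaving out each library gave 0 to 1 (0 otherwise). Among 171 single-gene differences, 25 lost their call under at least 1 setting and 16, none of them called, changed sign. The cause was not tested for any of these. Between neurons and glia, Slc30a9 (0.03) ranged from -0.0075 to 0.089 over left-out libraries. Slc30a10 (-0.04) was 0.040 with RLE factors, 0.025 at resolution 2 and 0.186 with doublets kept, and ranged from -0.394 to 0.840. In endothelial cells Slc16a11 (0.60) ranged from -0.078 to 1.59. Slc4a4 (0.05) was -0.241 rounded up and ranged from -0.349 to 0.219. Slc30a9 (0.15) was -0.0054 with unnamed clusters placed and ranged from -0.041 to 0.187. Slc39a12 (-0.28) was 0.047 at resolution 2 and ranged from -0.614 to 0.130. Between astrocytes and oligodendrocytes Slc2a3 (-0.36) was 0.013 at resolution 2, 0.087 with doublets kept and 0.077 with unnamed clusters placed, and Slc16a12 (0.28) ranged from -0.036 to 0.947. Between neuron classes, placing the unnamed clusters gave 0.309 for Slc2a13 (-0.05, adjusted p = 0.0249 when placed, edgeR), -0.586 for Slc16a12 (2.10), 0.188 for Slc8a3 (-0.13), 0.051 for Slc24a3 (-0.21) and -0.202 for Slc39a12 (0.04). Keeping doublets gave -0.592 for Slc4a4 (0.15) and -0.488 for Slc39a12, and rounding up gave -0.431 for Slc4a4. Over left-out libraries Slc2a13 ranged from -0.090 to 0.020, Slc4a4 from -0.201 to 0.511, Slc30a9 (-0.10) from -0.233 to 0.0085, Slc39a8 (0.30) from -0.135 to 1.23 and Slc39a12 from -0.148 to 0.247.

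The replicate numbers did not pair the libraries (correlation of deviations of same-numbered libraries 0.026). In the tables' column names the replicate 2 libraries of both lines share a number and the replicate 1 libraries do not, and the labels do not say what it marks. With the replicate block 0 transporters were called between the lines, over all nuclei and within each class, as without it. Leaving out a library leaves 1 library in an arm, which is assumed to vary like the others. Mural cells, with 5 transporters tested, and classes under 20 nuclei in a library limit what could be seen.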

Other observations

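Values outside the comparisons came from the unnamed clusters. In clusters 0 and 5, which scored highest for oligodendrocytes, Slc12a2 averaged 938.3 and 889.7 CPM, Slc8a1 783.8 and 738.8 CPM, and Slc4a2 75.7 and 61.2 CPM. In cluster 13, with the glycinergic marker Slc6a5, Slc12a5 averaged 496.7 CPM, Slc4a10 447.1 CPM and Slc16a11 112.2 CPM, while Slc24a2 averaged 833.4 CPM and Slc8a1 183.9 CPM.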
